A study of Homo sapiens with 16 samples.

Results

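The MCM genes described here are MCM2, MCM3, MCM4, MCM5, MCM6, MCM7, MCM8 and MCM10. They were chosen by name, as probe sets annotated with exactly 1 of these symbols, and all 8 had a value among the 19775 genes measured. They were represented by 18 of 41091 probe sets, which are the short probe groups with which an array reads a transcript. The brightest probe set of each gene over the 16 arrays is its main value, and all others are given as well. RNA came from a pair of established human mammary cell lines, MDA-MB-231, a breast cancer line, and MCF10A, an immortalized mammary epithelial line. Cells plated sparsely in 17.5 mM glucose were given 2-deoxy-glucose (2DG) at 50 mM, or a like amount of water as vehicle, and were harvested 24 h later. 2DG resembles glucose but cannot be used in glycolysis, which it inhibits. The 4 groups were MDA-MB-231 with 2DG, MDA-MB-231 on vehicle, MCF10A with 2DG and MCF10A on vehicle, with 4 biological replicates each, A to D, which the submitters call independent and ran side by side. The medium of MDA-MB-231 held fetal bovine serum and 2 mM glutamine, and that of MCF10A held 1 mM glutamine, horse serum and 4 additives (hydrocortisone, cholera toxin, insulin and hEGF), so line and medium cannot be told apart.

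MCM2 to MCM7 are the 6 subunits of the ring-shaped helicase that unwinds DNA at replication forks. The origin recognition complex, CDC6 and CDT1 load the ring onto DNA in G1 phase, and CDC45 and the GINS complex join it when origins fire in S phase. MCM10 is not a subunit of the ring but a factor that helps to activate it, and MCM8 is a related helicase known for its part in repair by homologous recombination. The label of helicase genes therefore covers 3 kinds of protein. MCM genes are known as targets of the E2F transcription factors, which are active in cycling cells, and their RNA is low in resting cells.

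All values are log2 units as deposited, and a change is a difference of log2 values with its standard error (SE) from limma, n = 4 per group. A gene was called where its Benjamini-Hochberg adjusted p, over all genes, was under 0.05. Values of other probe sets come from a limma fit of every probe set. The array medians lay between 6.17 and 6.22. The log2 difference between the 3' and the 5' actin control probe sets, which grows as RNA degrades and is called the actin ratio below, was 0.97 to 1.13 in MDA-MB-231 with 2DG and 0.38 to 1.09 in MDA-MB-231 on vehicle. It was 0.5 to 0.65 in MCF10A with 2DG and 0.34 to 0.49 in MCF10A on vehicle. The 1.09 belonged to MDA-MB-231 vehicle replicate B, and the other 3 vehicle arrays of that line read 0.38 to 0.47. Of 10 basal epithelial markers 7 were measured, and all 7 were lower in MDA-MB-231 than in MCF10A on vehicle, among them CDH1, which encodes E-cadherin, at 4.62 against 13.06. Of 8 mesenchymal markers, 5 were higher in MDA-MB-231 on vehicle, among them ZEB1, and 3 were lower, namely CDH2, SPARC and TWIST1.

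Every MCM gene was lower with 2DG in both lines. In MDA-MB-231 all 8 fell, with changes of -0.59 to -1.87 and a median change of -1.49, where 25.4% of all genes were called lower and the median change of all genes was 0.027. In MCF10A all 8 fell, with changes of -1.27 to -6.90 and a median change of -2.61, where 25.2% of all genes were called lower and the median change of all genes was 0.023. The adjusted p was at most 5.76e-07 in MDA-MB-231 and 2.83e-11 in MCF10A. Genes called lower in both lines made up 15.9% of all genes. By over 1 log2 unit, 7 of 8 members fell in MDA-MB-231, against 4.72% of all genes, and 8 of 8 in MCF10A, against 5.8% of all genes. The 2DG arrays lay below the vehicle arrays with no overlap for 8 of 8 members in each line, which held for 24% of all genes in MDA-MB-231 and 24.2% in MCF10A. In these bulk samples, fewer cycling cells and less MCM RNA per cell cannot be told apart.

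**Figure D1:**
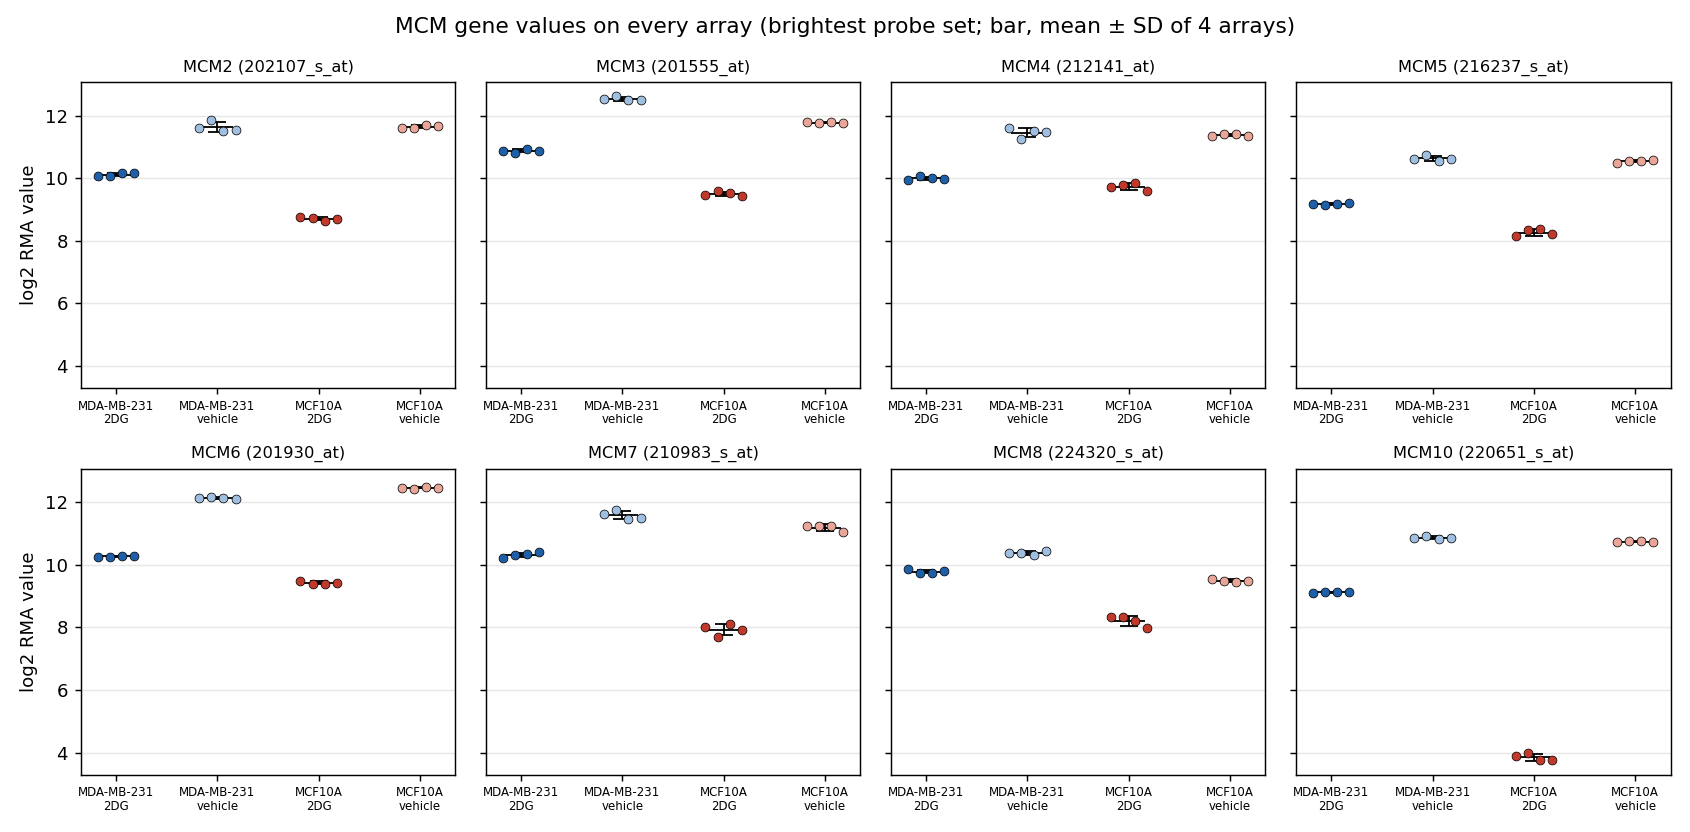
Values of the 8 MCM genes (log2 RMA value, brightest probe set) on each array, with 1 panel per gene and 1 point per array. Horizontal bars are group means and error bars are the SD of 4 arrays. In every panel the 2DG points lie below the vehicle points of the same line, and MCM10 in MCF10A with 2DG lies lowest, between 3.76 and 3.98.

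MCM2 forms, with MCM5, the gate through which DNA enters the ring. It read 10.06, 10.07, 10.15 and 10.18 in MDA-MB-231 with 2DG, against 11.61, 11.85, 11.52 and 11.55 on vehicle. In MCF10A it read 8.75, 8.73, 8.64 and 8.7 with 2DG, against 11.61, 11.6, 11.7 and 11.68 on vehicle. The vehicle arrays of the lines overlapped and the 2DG arrays did not, with MCF10A the lower line. MCM2 changed by -1.52 ± 0.0608 in MDA-MB-231 and by -2.94 ± 0.0608 in MCF10A, so that 34.9% and 13% of the vehicle signal were left on the linear scale.

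MCM3, the ring neighbour of MCM5 and MCM7, read 10.88, 10.82, 10.94 and 10.87 in MDA-MB-231 with 2DG, against 12.53, 12.62, 12.49 and 12.49 on vehicle. In MCF10A it read 9.45, 9.58, 9.54 and 9.42 with 2DG, against 11.79, 11.75, 11.8 and 11.76 on vehicle. MDA-MB-231 was the higher line in both states, with no overlap. The changes were -1.66 ± 0.0434 in MDA-MB-231 and -2.28 ± 0.0434 in MCF10A, which left 31.8% and 20.6% of the vehicle signal.

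MCM5, the partner of MCM2 at the gate, had 9.19, 9.13, 9.16 and 9.2 in MDA-MB-231 with 2DG, against 10.62, 10.75, 10.56 and 10.61 on vehicle. Its values in MCF10A were 8.14, 8.35, 8.36 and 8.2 with 2DG, against 10.5, 10.55, 10.56 and 10.57 on vehicle. The vehicle arrays of the lines overlapped and the 2DG arrays did not. The changes were -1.46 ± 0.0519 in MDA-MB-231 and -2.28 ± 0.0519 in MCF10A. The dimmer probe set of MCM5 changed by -1.18 and -1.85 in MDA-MB-231 and MCF10A, and on MDA-MB-231 vehicle arrays it read 9.42 for replicate B and 8.88 to 8.95 for the other 3.

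MCM4, whose long N-terminal tail is a substrate of the CDC7 kinase, read 9.94, 10.06, 10.01 and 9.96 in MDA-MB-231 with 2DG, against 11.59, 11.26, 11.5 and 11.47 on vehicle. In MCF10A it read 9.72, 9.77, 9.83 and 9.58 with 2DG, against 11.36, 11.42, 11.42 and 11.34 on vehicle. It was the ring subunit with the smallest fall in MCF10A, where 31.6% of the vehicle signal was left, and the vehicle arrays of the lines overlapped while the 2DG arrays did not. The changes were -1.46 ± 0.0645 in MDA-MB-231 and -1.66 ± 0.0645 in MCF10A. Of its 4 other probe sets, 3 fell in both lines, with changes of -0.97 to -1.52 in MDA-MB-231 and of -1.46 to -1.86 in MCF10A. The dimmest changed by -0.05 and 0.06 and was not called in either line (adjusted p = 0.651 and 0.579). The fourth in brightness read 7.01 on MDA-MB-231 vehicle replicate B, the array with the high actin ratio, and 8.32, 8.18 and 8.08 on the other vehicle arrays of that line.

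MCM6, a subunit next to MCM2 and MCM4 in the ring, read 10.25, 10.26, 10.29 and 10.29 in MDA-MB-231 with 2DG, against 12.14, 12.18, 12.15 and 12.11 on vehicle. In MCF10A it read 9.5, 9.4, 9.4 and 9.41 with 2DG, against 12.46, 12.44, 12.48 and 12.47 on vehicle. Here the lines changed places: MDA-MB-231 was lower than MCF10A on vehicle and higher with 2DG. By the brightest probe sets MCM6 had the largest fall of all 8 genes in MDA-MB-231, at -1.87 ± 0.0324. A dimmer MCM10 probe set changed by -1.88 ± 0.123 there. In MCF10A MCM6 changed by -3.04 ± 0.0324, and 27.3% and 12.2% of its vehicle signal were left in MDA-MB-231 and MCF10A. Its dimmer probe set changed by -2.69 and -3.49 and ended at 4.18 ± 0.248 (SD) in MDA-MB-231 and 4.12 ± 0.234 in MCF10A with 2DG, values that 17.3% and 16.5% of all probe sets lay below.

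MCM7 completes the ring, and its values were 10.22, 10.32, 10.34 and 10.4 in MDA-MB-231 with 2DG, against 11.64, 11.74, 11.48 and 11.5 on vehicle. In MCF10A they were 8.01, 7.68, 8.12 and 7.93 with 2DG, against 11.24, 11.23, 11.26 and 11.05 on vehicle. By the brightest probe sets MCM7 had the smallest change among the ring subunits in MDA-MB-231 and the largest in MCF10A, and MDA-MB-231 was the higher line in both states. The changes were -1.27 ± 0.0842 and -3.26 ± 0.0842, which left 41.5% of the vehicle signal in MDA-MB-231 and 10.4% in MCF10A. On its other probe set the changes were -1.2 ± 0.0488 and -2.85 ± 0.0488. Both places of MCM7 depended on the processing. With the mean of all probe sets MCM4 changed less in MDA-MB-231 (-1.05, against -1.24 for MCM7) and MCM6 changed more in MCF10A (-3.26, against -3.05 for MCM7), and with the actin ratio as a covariate MCM4 changed less in MDA-MB-231 (-1.27, against -1.33 for MCM7).

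The 6 ring subunits had a mean change of -1.54 in MDA-MB-231, with an SD over the genes of 0.2, and of -2.58 in MCF10A, with an SD over the genes of 0.6. By the brightest probe sets the order of the subunits differed between the lines. In MDA-MB-231 it ran from MCM6 through MCM3, MCM2, MCM5 and MCM4 to MCM7, and in MCF10A from MCM7 through MCM6, MCM2, MCM5 and MCM3 to MCM4. MCM2, MCM5 and MCM4 in MDA-MB-231 lay within 1 SE of MCM2 of each other, and MCM5 and MCM3 in MCF10A differed by less than 1 SE, so these have no order.

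MCM8 fell least of the 8 genes in both lines. It read 9.86, 9.75, 9.73 and 9.81 in MDA-MB-231 with 2DG, against 10.39, 10.37, 10.32 and 10.44 on vehicle. In MCF10A it read 8.32, 8.35, 8.21 and 7.99 with 2DG, against 9.56, 9.49, 9.44 and 9.48 on vehicle. MDA-MB-231 with 2DG still lay above MCF10A on vehicle, which was so for no other member. The changes were -0.59 ± 0.0643 in MDA-MB-231 and -1.27 ± 0.0643 in MCF10A, and 66.3% and 41.3% of the vehicle signal were left. Its dimmer probe set, of a type that can cross-match other transcripts, was not called, with changes of 0.02 in MDA-MB-231 and -0.08 in MCF10A (adjusted p = 0.909 and 0.491).

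MCM10, the factor that helps to activate the ring, had the largest difference between the lines. It read 9.1, 9.13, 9.15 and 9.13 in MDA-MB-231 with 2DG, against 10.85, 10.93, 10.84 and 10.85 on vehicle. In MCF10A it read 3.88, 3.98, 3.76 and 3.76 with 2DG, against 10.72, 10.77, 10.77 and 10.73 on vehicle. On this probe set the vehicle arrays of the lines lay close together, without overlap, and the 2DG arrays lay far apart. MCM10 changed by -1.74 ± 0.0454 in MDA-MB-231, place 159 of 19775 genes counted from the largest fall, and by -6.90 ± 0.0454 in MCF10A, place 1 of 19775.

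The size in MCF10A, and with it place 1 of 19775, depended on the probe set. The brightest probe set ended at 3.84 in MCF10A with 2DG, a level that 12.8% of all probe sets lay below. The other MCM10 probe sets ended at 5.45 ± 0.364 (SD) and 5.2 ± 0.407, levels that 36.7% and 32.5% of all probe sets lay below, and changed by -4.75 ± 0.123 and -4.92 ± 0.132. These were smaller falls than that of RRM2, a gene of nucleotide synthesis, at -5.88 by its brightest probe set. In MDA-MB-231 the 3 probe sets changed by -1.74, -1.88 and -1.8. All 3 fell in both lines, and RMA gives no call of whether the low values in MCF10A are above background.

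**Figure D2:**
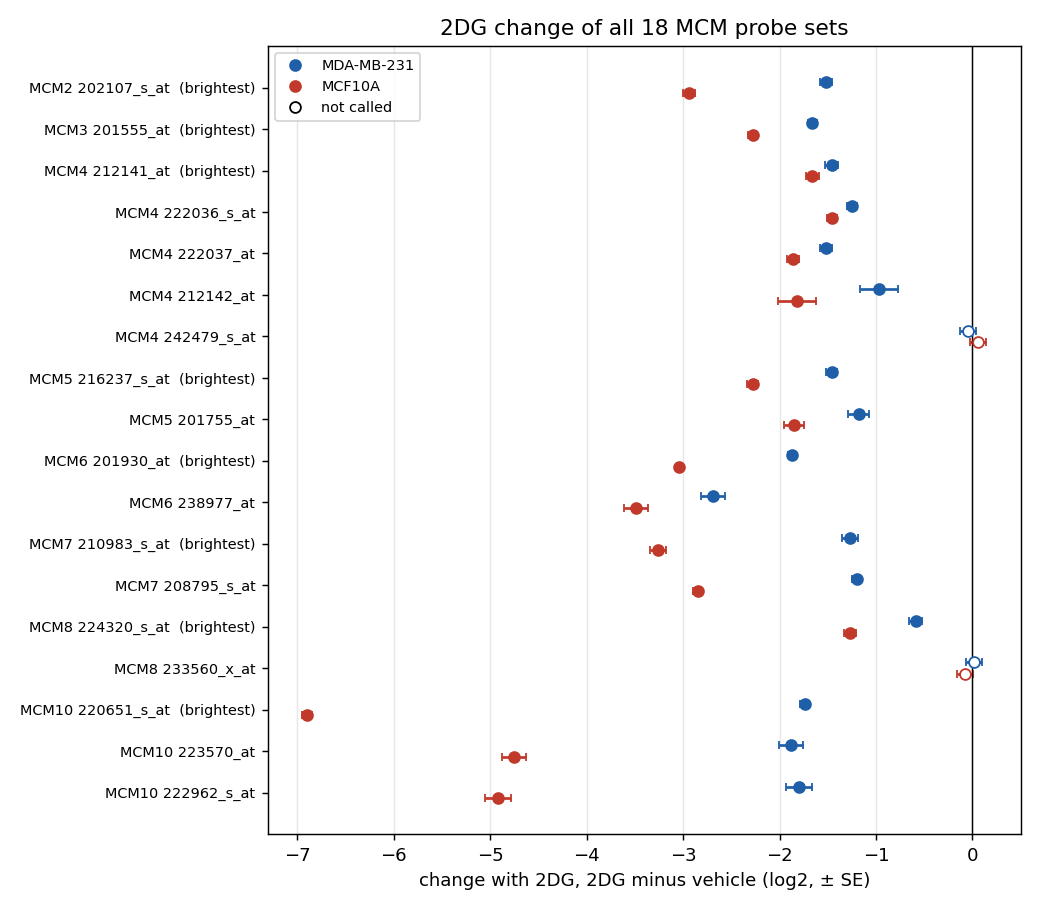
Change with 2DG (2DG minus vehicle, log2, x axis) of all 18 probe sets of the 8 genes, in MDA-MB-231 (blue, upper point) and MCF10A (red, lower point). Bars are the SE from a limma fit of every probe set, and open points were not called. In each line 16 of 18 probe sets were called lower and 2 were not called, namely the dimmest of MCM4 and of MCM8. Probe sets of the same gene are repeated readings, and the share of all probe sets called lower in that fit was not computed.

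The response to 2DG differed between the lines, with the larger fall in MCF10A. The difference of response, MDA-MB-231 minus MCF10A, was positive and called for 7 of 8 members, where 22.3% of all genes were called in that direction and 23.6% in the other. It was 5.16 ± 0.0643 for MCM10, 1.99 ± 0.119 for MCM7, 1.42 ± 0.086 for MCM2, 1.16 ± 0.0458 for MCM6, 0.82 ± 0.0734 for MCM5, 0.68 ± 0.0909 for MCM8 and 0.62 ± 0.0614 for MCM3, with adjusted p at most 8.68e-06 for these 7. MCM4 did not pass by its main value, at 0.2 ± 0.0913 (adjusted p = 0.094). It passed without MDA-MB-231 vehicle replicate A (0.24, adjusted p = 0.0364), with the mean of all its probe sets (0.3, adjusted p = 0.00131) and with the actin ratio as a covariate (0.32, adjusted p = 0.000848), and 3 of its 4 other probe sets passed at 0.22, 0.34 and 0.86. The 0.86 is of the probe set that read 7.01 on MDA-MB-231 vehicle replicate B, the array with the high actin ratio. The other vehicle arrays of that line read 8.08 to 8.32 there. The MCM4 difference by its main value was smaller and not called without MDA-MB-231 vehicle replicate B (0.13, adjusted p = 0.179) and without MCF10A 2DG replicate D (0.15, adjusted p = 0.19). For MCM10 the other probe sets gave differences of 2.87 ± 0.175 and 3.12 ± 0.187, both called.

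**Figure D3:**
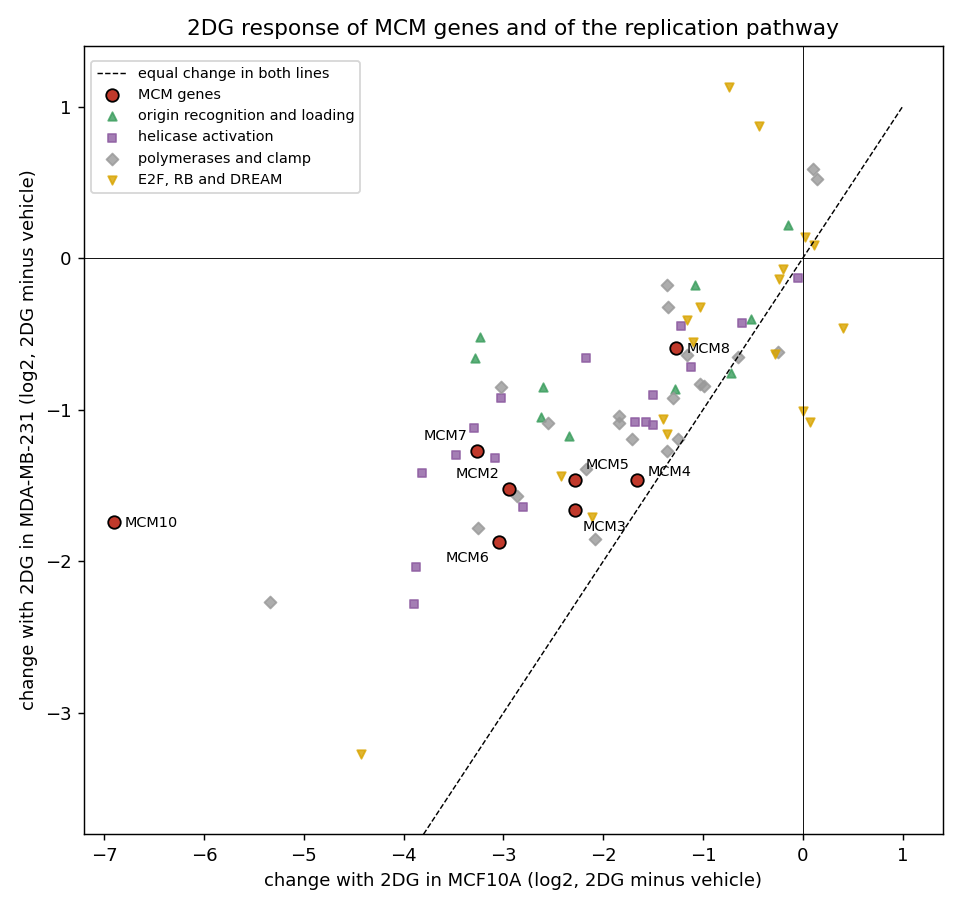
Change with 2DG (2DG minus vehicle, log2) in MCF10A (x axis) and in MDA-MB-231 (y axis), 1 point per gene, for the 8 MCM genes (red) and 4 lists of other genes of replication and its control. On the dashed line both changes are equal. All 8 MCM genes lie in the lower left and above the line, MCM10 far to the left at -6.90 and MCM4 nearest to the line.

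MDA-MB-231 was called higher than MCF10A on vehicle for 4 of 8 members, where 29.2% of all genes were called higher, and lower for 1, where 26.8% of all genes were called lower. The higher ones were MCM8 by 0.89 ± 0.0643, MCM3 by 0.76 ± 0.0434, MCM7 by 0.4 ± 0.0842 and MCM10 by 0.12 ± 0.0454, and the lower one was MCM6 at -0.32 ± 0.0324. MCM2, MCM4 and MCM5 did not pass, at -0.02 ± 0.0608, 0.07 ± 0.0645 and 0.09 ± 0.0519 (adjusted p = 0.866, 0.396 and 0.162). For MCM4 the direction on vehicle was not settled, since it was called at 0.16 with the actin ratio as a covariate (adjusted p = 0.00822) and at -0.17 on its second brightest probe set (adjusted p = 0.0124). The call of MCM10 (adjusted p = 0.0338) was lost without MCF10A vehicle replicate A, without MCF10A vehicle replicate D and without MDA-MB-231 vehicle replicate B, at 0.11, 0.11 and 0.1 (adjusted p = 0.0783, 0.0721 and 0.0945). It was also lost with every probe set tested, with arrays centred on the median and with the actin ratio as a covariate, at 0.12, 0.12 and 0.1 (adjusted p = 0.0589, 0.0531 and 0.0973). On both of its other probe sets the difference was negative, at -0.26 and -0.19, and not called (adjusted p = 0.101 and 0.276), so the direction of MCM10 on vehicle depended on the probe set.

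Under 2DG, MDA-MB-231 was called higher than MCF10A for 8 of 8 members, where 30.7% of all genes were called higher. The differences ran from 0.27 ± 0.0645 for MCM4 (adjusted p = 0.00173) to 5.28 ± 0.0454 for MCM10, with a median of 1.4. For MCM4 the other probe sets had 0.05, 0.26, 0.72 and -0.2, of which 0.26 and 0.72 were called. The dimmer MCM6 probe set differed by 0.06 and was not called (adjusted p = 0.723), with both lines at its low end. Ordered by group mean, MCM2, MCM4 and MCM5 ran from both vehicle groups, which did not differ by the test, to MDA-MB-231 with 2DG and then MCF10A with 2DG. MCM3 and MCM7 had MDA-MB-231 on vehicle first, then MCF10A on vehicle, MDA-MB-231 with 2DG and MCF10A with 2DG. MCM10 had both vehicle groups, whose order depended on the probe set, above MDA-MB-231 with 2DG and then MCF10A with 2DG. For MCM6 the vehicle groups changed places, and MCM8 ran from MDA-MB-231 on vehicle through MDA-MB-231 with 2DG and MCF10A on vehicle to MCF10A with 2DG.

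**Figure D4:**
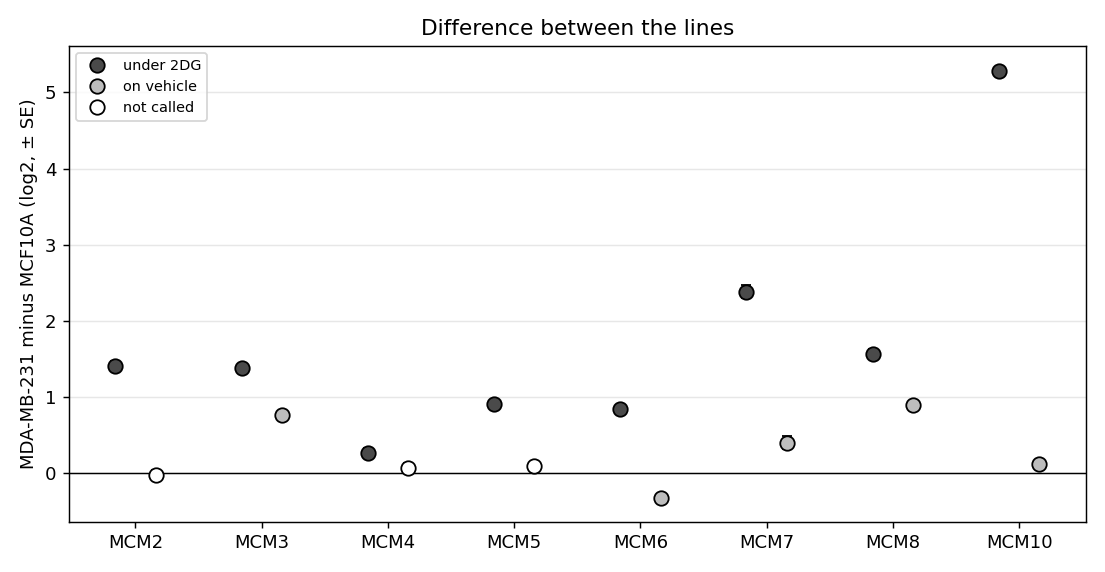
Difference between the lines (MDA-MB-231 minus MCF10A, log2, y axis) for each MCM gene under 2DG (dark points) and on vehicle (light points), with open points where limma did not call it. Bars are the SE and are mostly smaller than the points. The differences on vehicle lie between -0.32 and 0.89, and those under 2DG between 0.27 and 5.28.

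The actin ratio averaged 1.027 ± 0.071 in MDA-MB-231 with 2DG and 0.598 ± 0.331 on vehicle, and 0.55 ± 0.068 in MCF10A with 2DG and 0.392 ± 0.067 on vehicle (SD, n = 4 each). With the ratio as a covariate all 8 MCM genes were still called lower in both lines. Within groups the ratio varied mainly through MDA-MB-231 vehicle replicate B, so this fit rests largely on that array. Apart from it, the ratio in MDA-MB-231 was 0.38 to 0.47 on vehicle and 0.97 to 1.13 with 2DG, so ratio and treatment cannot be told apart there. MCM8 changed least in that fit, by -0.56 in MDA-MB-231 and -1.26 in MCF10A. The largest changes were -1.89 for MCM6 in MDA-MB-231 and -6.91 for MCM10 in MCF10A. Without MDA-MB-231 vehicle replicate B, all 8 genes were called lower in both lines.

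The other genes that load and fire the helicase are given by lists. Of 10 genes of origin recognition and loading, 1 rose and 9 fell in MDA-MB-231, with a median of -0.71. All 10 fell in MCF10A, with a median of -1.81. Of all genes, 25.5% were called higher and 25.4% lower in MDA-MB-231, and 29% higher and 25.2% lower in MCF10A. CDT1, the loading factor that brings the MCM ring to origins, changed by -0.66 ± 0.0558 in MDA-MB-231 and by -3.28 ± 0.0558 in MCF10A. Its probe set is of the type that can cross-match other transcripts. Geminin, the CDT1 inhibitor encoded by GMNN, changed by -1.17 and -2.34, the largest fall of the list in MDA-MB-231. CDC6, an ATPase of loading, changed by -0.85 and -2.6, and ORC1, the origin recognition subunit that varies with the cell cycle, by -1.05 and -2.62. MCMBP, a protein that binds MCM subunits, changed by -0.18 in MDA-MB-231, the smallest of the list there, and by -1.08 in MCF10A. ORC4, a core subunit, was the gene that rose in MDA-MB-231, by 0.22, and had the smallest fall in MCF10A, at -0.15.

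Of 17 genes of helicase activation, all 17 fell in MDA-MB-231, with a median of -1.08, and 16 fell in MCF10A, with a median of -2.17, where 25.4% and 25.2% of all genes were called lower. CDC45, which joins the ring at the fork, changed by -1.42 ± 0.0732 in MDA-MB-231 and by -3.82 ± 0.0732 in MCF10A, and GINS2, a subunit of its partner complex, changed most, by -2.28 and -3.90. The kinase CDC7 changed by -0.92 and -3.02 and its activator DBF4 by -1.08 and -1.57. TOPBP1, a scaffold of origin firing, had the smallest change of the list in each line, -0.13 in MDA-MB-231, and -0.05 in MCF10A, which was not called (adjusted p = 0.192). The difference of response was called for 15 of the 17, all positive, where 22.3% of all genes were called in that direction.

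Among 22 genes of the polymerases and the clamp, 2 rose and 20 fell in MDA-MB-231, with a median of -0.98, and 2 rose and 19 fell in MCF10A, with a median of -1.36. Of all genes, 25.5% were called higher and 25.4% lower in MDA-MB-231, and 29% higher and 25.2% lower in MCF10A. PCNA, the sliding clamp, changed by -1.04 ± 0.0375 in MDA-MB-231 and by -1.84 ± 0.0375 in MCF10A. POLE2, a subunit of polymerase epsilon, changed most, by -2.27 and -5.34. The smallest changes were that of RPA2, a subunit of the single-strand binding protein, at -0.18 in MDA-MB-231, and that of POLE4, another polymerase epsilon subunit, which rose by 0.1 in MCF10A.

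The 18 genes of the E2F, RB and DREAM list moved less evenly. In MDA-MB-231 2 rose and 13 fell, with a median of -0.5, and in MCF10A 1 rose and 13 fell, with a median of -0.59, beside the same shares of all genes (25.5% higher and 25.4% lower in MDA-MB-231, 29% higher and 25.2% lower in MCF10A). E2F1, an activating E2F factor, changed by -0.63 ± 0.0616 in MDA-MB-231 and by -0.28 ± 0.0616 in MCF10A. E2F8, an E2F factor known as a repressor, changed most, by -3.27 and -4.43. RB1, the retinoblastoma gene, had the smallest change in MDA-MB-231, at -0.07 (adjusted p = 0.203), and RBBP4, a histone-binding protein of the DREAM complex, had the smallest change in MCF10A, with an adjusted p = 0.923. The difference of response was called positive for 9 and negative for 4 of the 18, where 22.3% of all genes were called positive and 23.6% negative, so the negative count is near the share of all genes.

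To find genes with a like pattern, each gene was centred on its own mean over the 16 arrays and set against a profile by the root mean square difference in log2 units. For the mean of MCM2 to MCM7, the nearest of all genes that are no member were RRP7A at 0.115, a ribosome processing factor, CDC25C at 0.121, a phosphatase of mitotic entry, RFC3 at 0.127, a clamp loader subunit, FBXO5 at 0.129, an inhibitor of the anaphase-promoting complex, and FANCI at 0.144, a Fanconi repair protein. These 5 genes changed by -1.40 to -1.63 in MDA-MB-231 and by -2.36 to -2.86 in MCF10A. They lay nearer to the mean profile than MCM3, MCM5, MCM6, MCM4 and MCM7 did, at 0.227, 0.149, 0.291, 0.423 and 0.448, while MCM2 stood at 0.143. MCM8 and MCM10 lay farther off, at 0.637 and 1.835. RRP7A was read from a probe set of the type that can cross-match other transcripts.

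MCM8 was nearest to CHTF18 at 0.093, a subunit of an alternative clamp loader, DBF4B at 0.1, a second activator of CDC7, and NUDT1 at 0.104, which cleans oxidized nucleotides from the pool. These 3 genes changed by -0.42, -0.45 and -0.72 in MDA-MB-231 and by -1.22, -1.22 and -1.32 in MCF10A. For MCM10 the nearest genes were SPC25 at 0.616, a kinetochore protein, POLE2 at 0.637 and RRM2 at 0.673, the subunit of ribonucleotide reductase that varies with the cell cycle. These 3 genes changed by -2.39, -2.27 and -2.01 in MDA-MB-231 and by -5.64, -5.34 and -5.88 in MCF10A.

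Promoters are shown because the genes moved together and MCM genes are known E2F targets. RefSeq windows of 300 bases, from 250 before to 50 after a start of transcription, were at hand for 6 of the 8 genes, MCM2, MCM3, MCM6, MCM7, MCM8 and MCM10. They were searched on both strands for the E2F words TTTGGCGC, TTTCCCGC, TTTCGCGC and TTTGCCGC, overlapping matches counted as 1 place. A word was found in 5 of the 6 windows, taking the first window of MCM7, against 3.3% of 34943 RefSeq windows of this length. The shares of all windows count every window, further starts of the same gene included, so the units are not alike. MCM3, MCM6 and MCM7 had 2 places each, MCM2 and MCM8 had 1, and MCM10, the member with the largest fall in MCF10A, had none. Only exact words were counted. The MCM10 window holds TTTGGCGG, which differs from the word TTTGGCGC in the last letter only, and such near matches were not searched for. The CCAAT word was in 5 of the 6, all but MCM2, against 34.6% of all windows, and TTTGAA, the word of the cell cycle homology region, in 0 of the 6, against 15.2%. A match describes letters and is not a binding site, and 2 further windows of MCM7 held no E2F word.
Windows follow for MCM6, with the largest fall in MDA-MB-231 by main values, and MCM7, the ring subunit with the largest difference of response. Those of MCM8, which fell least, and of MCM10, which fell most in MCF10A, follow too. They are given 5′ to 3′ on the gene's strand, GRCh38.p14, with E2F words in capitals.
MCM6, chr2:135876394-135876693, minus strand: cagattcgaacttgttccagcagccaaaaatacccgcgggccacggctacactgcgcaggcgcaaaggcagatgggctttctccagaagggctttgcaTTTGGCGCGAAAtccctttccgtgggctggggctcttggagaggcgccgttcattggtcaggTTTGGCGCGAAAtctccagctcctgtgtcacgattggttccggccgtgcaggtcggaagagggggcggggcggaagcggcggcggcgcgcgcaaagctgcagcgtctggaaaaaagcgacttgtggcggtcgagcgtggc
MCM7, chr7:100101348-100101647, minus strand: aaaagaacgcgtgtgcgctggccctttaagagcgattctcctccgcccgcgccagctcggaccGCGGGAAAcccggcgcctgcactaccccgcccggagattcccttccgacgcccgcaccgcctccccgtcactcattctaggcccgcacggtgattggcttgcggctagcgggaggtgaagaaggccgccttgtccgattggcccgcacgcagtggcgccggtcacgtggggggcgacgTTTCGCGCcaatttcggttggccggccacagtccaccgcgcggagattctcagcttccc
MCM8, chr20:5950402-5950701, plus strand: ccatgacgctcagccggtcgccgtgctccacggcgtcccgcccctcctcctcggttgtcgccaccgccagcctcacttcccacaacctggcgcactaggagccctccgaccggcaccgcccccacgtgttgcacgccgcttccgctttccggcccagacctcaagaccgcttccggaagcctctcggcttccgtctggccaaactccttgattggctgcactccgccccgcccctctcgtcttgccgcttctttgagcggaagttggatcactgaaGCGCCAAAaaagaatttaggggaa
MCM10, chr10:13161308-13161607, plus strand: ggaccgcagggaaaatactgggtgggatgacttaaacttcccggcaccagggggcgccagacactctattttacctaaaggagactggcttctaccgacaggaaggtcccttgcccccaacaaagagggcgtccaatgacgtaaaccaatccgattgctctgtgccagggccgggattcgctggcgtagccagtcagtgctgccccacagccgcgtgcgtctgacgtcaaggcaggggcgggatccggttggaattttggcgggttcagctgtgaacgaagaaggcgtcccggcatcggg

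In these windows both MCM6 places read the same 12 letters, a pair of E2F words on opposite strands that overlap, 152 and 90 bases before the start. The MCM7 places lie 187 and 9 bases before the start, the second sharing its last base with a CCAAT word, and the MCM8 place lies 26 bases after it.

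For 3 members, a measured gene that starts close by on the other strand was read as well. Starts were taken from the promoter windows, so MCM4 and MCM5, which had none, were not searched for such genes. AP4M1, an adaptor complex subunit that starts 246 bases from MCM7, changed by -0.67 ± 0.0556 in MDA-MB-231 and by -0.15 ± 0.0556 in MCF10A. Its difference of response, MDA-MB-231 minus MCF10A, was -0.52, opposite in sign to that of MCM7. TRMT6, a tRNA methyltransferase subunit that starts 119 bases from MCM8, changed by -0.27 ± 0.0664 and -0.71 ± 0.0664. TPRA1, a membrane protein that starts 180 bases from MCM2, rose by 0.23 ± 0.0683 in MDA-MB-231 and by 0.48 ± 0.0683 in MCF10A while MCM2 fell. All 6 of these changes were called (adjusted p at most 0.0317).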

How the data were processed

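RNA of 16 samples was measured on one-colour Affymetrix arrays after biotin labelling with a 3' in vitro transcription kit, per the labels' protocols. Per probe set, the authors deposited a log2 value made with the RMA method, which corrects background, equalizes the arrays by quantiles and summarizes probes, per the submitters' processing notes. The RMA version was not given in the sources used here. RMA compresses small signals and carries no call of signal over background, and the number of arrays limits the precision.

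Gene names came from the platform's annotation in GEO, updated by Entrez number with RefSeq (41037 of 41091 probe sets with 1 gene matched). For each of 19775 genes the brightest probe set by its mean over 16 arrays was used. The log2 values were fitted across all genes by linear models with moderated variances (limma 3.58.1, R 4.3.3), 1 mean per group, all 16 arrays together and 12 residual degrees of freedom. Tests were two-sided, and the call threshold was 0.05 on p-values adjusted by Benjamini-Hochberg across the 19775 genes. The other probe sets of the members were read from a fit of every probe set, adjusted over all of them. The procedure was tested on simulated data. Alternatives were a replicate block, moderation with trend and robust, only the 8 arrays compared, dim genes left out, other choices of probe set, median centring, the actin ratio as a covariate and leaving out each replicate. The deviations of same-letter replicates of different groups had correlations of -0.099 to 0.088 over 24 pairs. Between MCF10A with 2DG and on vehicle they were all positive, at 0.085, 0.04, 0.071 and 0.088, against -0.117 to 0.069 for different letters. The letters are not stated to mark shared batches and were not treated as pairs, and the replicate block serves as the alternative.

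All 8 members were named with every probe set. From the fixed pathway lists the text names the gene with the largest and the one with the smallest change per list and line, and ORC1, CDC6, CDT1, GMNN, MCMBP, CDC45, CDC7, DBF4, E2F1 and PCNA. It also names the genes nearest in pattern (5 for the mean of MCM2 to MCM7, 3 each for MCM8 and MCM10). Genes that start divergently within 1000 bases of a member with a promoter window are named too. The members and lists were chosen with earlier results of these data known. Promoter sequences came from RefSeq (GRCh38.p14).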

Additional observations from a re-analysis of the deposited data

Results flagged for a closer look

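The response to 2DG differed between the lines for 7 members, by a test of the difference itself (MDA-MB-231 minus MCF10A, log2): MCM10 by 5.16, MCM7 by 1.99, MCM2 by 1.42, MCM6 by 1.16, MCM5 by 0.82, MCM8 by 0.68 and MCM3 by 0.62. In each case the fall was larger in MCF10A.

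Single arrays stood apart from the other 3 of their group in 8 of 72 groups of a probe set and a condition, where chance flags about 1 in 20. MDA-MB-231 vehicle replicate B was high for the dimmer MCM5 probe set (9.42, others 8.88 to 8.95) and for the brightest MCM10 probe set (10.93, others 10.84 to 10.85), and it is the array with the high actin ratio. That array was also low for the fourth brightest MCM4 probe set (7.01, others 8.08 to 8.32), which was not among the 8 flagged. MDA-MB-231 with 2DG had replicate D high for the fourth brightest MCM4 probe set (6.99, others 6.91), replicate A low for the dimmer MCM6 probe set (3.81, others 4.27 to 4.32) and replicate C low for the dimmest MCM10 probe set (8.07, others 8.15 to 8.16). In MCF10A with 2DG, replicate C was high for the fourth brightest MCM4 probe set (6.4, others 6.13 to 6.17) and replicate A for the brighter MCM6 probe set (9.5, others 9.4 to 9.41). In MCF10A on vehicle, replicate D was low for the brighter MCM7 probe set (11.05, others 11.23 to 11.26).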

How the results depend on the processing

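All 8 members were called lower with 2DG in both lines under each alternative that kept all 8. Leaving out each replicate gave 8 to 8 members for either line's 2DG change, 7 to 8 for the difference of response, 4 to 5 for the lines on vehicle and 8 to 8 for the lines under 2DG. Without shared probe sets 5 members had a value, of which 5 were called for 2DG in MDA-MB-231, 5 in MCF10A, 4 for the difference of response, 2 for the lines on vehicle and 5 for the lines under 2DG, the loss coming from genes with no such probe set and, on vehicle, also from MCM10. MCM10 on vehicle reversed to -0.11 with the mean of all probe sets and to -0.26 without shared probe sets, neither called. Over 977 changes of single members under the alternatives, 965 kept their call or lack of it, 6 lost the call, 4 gained it and 2 reversed. A change of sign counted as reversed only where the main or the alternative value was called. The 965 therefore include uncalled values that changed sign, such as MCM4 on vehicle, at 0.07 by its main value and -0.08 with the mean of all probe sets. With the replicate block 8 members were called for 2DG in MDA-MB-231, 8 in MCF10A, 7 for the difference of response, 5 on vehicle and 8 under 2DG, so the block changed no call. The mean of all probe sets, which includes those not called, moved the MCM8 change to -0.29 in MDA-MB-231 and -0.68 in MCF10A. Low signals limit the MCM10 change in MCF10A and the dimmer MCM6 probe set.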
